A study of Mus musculus with 2 samples.

Results

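The genes described here are Mir484, Mir320, Mir877, Mir702 and Mir1224, microRNA genes whose products are made without the Drosha step according to the literature. They were chosen by name from that literature and not by a rule on their levels, though with earlier results of these data known. All 5 have a row among the 1973 microRNA genes of the deposited tables. MicroRNA sequencing, which per the labels took RNA fragments under 30 nucleotides (nt), was carried out on kidneys of healthy B6NCrl mouse embryos at embryonic day 16.5. Both libraries, biological replicates 2 and 1 in the labels, came from untreated whole kidneys pooled over male and female embryos, 41 embryos for replicate 2 and an unstated number for replicate 1. No genotype, treatment or second age was compared, so the data describe levels in 1 group and the spread between 2 libraries. The labels give both tissue samples the same donor record, so that spread may be partly technical.

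Most microRNAs are cut out of a long primary transcript by Drosha and its partner DGCR8 in the nucleus, and the hairpin that results is cut again by Dicer in the cytoplasm. Some hairpins do without the first cut. Mir320 and Mir484 are known for short hairpins that carry a 7-methylguanosine cap, because transcription starts at the base of the hairpin itself, and Dicer then cuts them directly. Mirtrons, such as Mir877 and Mir1224, are short introns that the spliceosome releases, and that fold into a hairpin once the lariat is opened. Mir702 is also listed as a mirtron in that literature. In the kidney at this stage, nephrons are still forming.

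The precursors show how these routes differ, so they are printed here from RefSeq on build GRCm38.p6, 5′ to 3′ on the strand of the gene. In the Mir484 hairpin (chr16:14159626-14159692, plus strand) the capitals mark the mature microRNA, which begins 4 nt after the first base of the hairpin. In the Mir877 hairpin (chr17:35960730-35960814, minus strand) and the Mir1224 hairpin (chr16:20604452-20604536, plus strand) the capitals mark the first and last 2 bases of the host intron, the GU and AG that the spliceosome reads. In the Mir702 hairpin (chr5:136991433-136991541, plus strand) they mark the first 2 bases of the intron.
Mir484: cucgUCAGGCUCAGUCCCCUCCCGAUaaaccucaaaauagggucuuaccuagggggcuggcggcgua
Mir877: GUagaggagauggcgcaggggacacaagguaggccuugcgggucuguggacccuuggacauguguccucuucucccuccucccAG
Mir1224: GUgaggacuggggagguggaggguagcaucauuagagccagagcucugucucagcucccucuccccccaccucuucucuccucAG
Mir702: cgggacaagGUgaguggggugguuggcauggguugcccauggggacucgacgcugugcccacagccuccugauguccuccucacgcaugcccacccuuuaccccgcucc

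The mature microRNAs of these genes are shown next, with the seed, bases 2 to 8, in capitals, because the seed decides most of the target pairing. The tables count reads per gene, so how the reads divide between the arms of a hairpin was not analysed here. RefSeq entries were matched for 4 of the 5 genes, all but Mir320.
miR-484: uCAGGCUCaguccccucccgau
miR-877-5p: gUAGAGGAgauggcgcaggg
miR-877-3p: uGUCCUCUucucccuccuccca
miR-1224-5p: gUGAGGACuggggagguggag
miR-1224-3p: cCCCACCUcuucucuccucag
miR-702-5p: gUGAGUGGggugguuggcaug
miR-702-3p: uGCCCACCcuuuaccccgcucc
miR-3102-5p: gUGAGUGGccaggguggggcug
Within the RefSeq set of 1738 mature microRNAs, 1 seed of these genes occurred in another gene. It is UGAGUGG, which miR-702-5p shares with miR-3102-5p of the mirtron gene Mir3102, shown for that reason. Both begin with the first base of their introns, so the seed covers bases 2 to 8 of the intron and begins within the GU that the spliceosome reads. Mature microRNAs that begin with GUGAG numbered 14 of 1738 (0.806%), searched on the microRNA strand, and 9 of the 14 belong to genes whose precursor fills an intron.

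The capped hairpins were by far the most abundant of the 5 genes, and the mirtrons were low. Reads that fell on these genes, on the strand of the gene, made up 0.222% (exact 95% interval 0.218 to 0.225) of all reads in microRNA genes in replicate 2 and 0.190% (0.187 to 0.194) in replicate 1. The mean share was 0.206% ± 0.0222 (SD, n = 2). Mir484 and Mir320 together gave 97.7% ± 0.0543 of these reads. The 3 mirtron genes summed to 355 reads in replicate 2 and 235 in replicate 1, or 0.00470% ± 0.000396 of reads in microRNA genes. Libraries held 7128703 such reads in replicate 2 and 5317669 in replicate 1, so that 3 reads, the limit that a count of 0 allows, equal 0.421 and 0.564 counts per 1000000 (CPM). Levels were not divided by gene length, because a read covers a whole mature microRNA.

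Mir484, counted at 11695 reads in replicate 2 and 7551 in replicate 1, stood at 1641 and 1420.0 CPM. Its mean of 1530.3 ± 156 CPM (SD, n = 2) placed it at rank 65 of 1973 genes, above 83.2% of the 387 genes that reached 1 CPM in both libraries. The hairpin lies outside annotated introns of its own strand. Its first base is 359 nt from the nearest annotated start of a protein-coding transcript, that of Marf1, a regulator of oocyte meiosis transcribed in the opposite direction. An exon of another Marf1 transcript overlaps the hairpin on the opposite strand. Opposite-strand reads numbered 0 for Mir484 in both libraries, and only 78 of 1973 genes (3.95%) had any in either library.

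Mir320 reached 526 CPM in replicate 2 and 438 CPM in replicate 1, from 3751 and 2328 reads. The mean was 482 ± 62.5 CPM (SD, n = 2), at rank 104. Its precursor, chr14:70443510-70443591 on the plus strand, begins 63 nt from the annotated start of Polr3d, a subunit of RNA polymerase III, which is transcribed in the opposite direction. Of 1894 genes matched to the annotation, 36 (1.90%) lay outside introns of their own strand with their nearest protein-coding start within 500 nt and in the opposite direction. Genes with a nearer start on their own strand are not in this count. Mir484 and Mir320 were the highest of those 36, and Mir760 was next at 23.8 ± 2.74 CPM. The distance was chosen after the positions of both genes were known, so these counts are a description.

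Mir877 lies in Abcf1, a gene of the ABC-F family linked to translation initiation. It had 248 reads in replicate 2 and 173 in replicate 1, or 34.8 and 32.5 CPM, with a mean of 33.7 ± 1.60 CPM (SD, n = 2). Of the 5 genes it had the smallest SD on the log2(CPM + 1) scale, 0.07, against 0.52 for Mir1224. The exact 95% intervals of counting error overlap, with 30.6 to 39.4 CPM in replicate 2 and 27.9 to 37.8 CPM in replicate 1.

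Mir702 lies at an intron of Plod3, an enzyme that hydroxylates and glycosylates collagen lysines. It stood at 14.2 CPM in replicate 2 (11.5 to 17.2) and 9.59 CPM in replicate 1 (7.14 to 12.6), from 101 and 51 reads. Its mean of 11.9 ± 3.24 CPM (SD, n = 2) was above 31.0% of the genes at 1 CPM or more in both libraries. Mir1224 lies in Vwa5b2. It had 6 reads in replicate 2 and 11 in replicate 1, or 0.842 CPM (0.309 to 1.83) and 2.07 CPM (1.03 to 3.70). In replicate 2 the interval reaches below the 0.421 CPM that a count of 0 allows. Mir1224 alone among the 5 genes did not reach 1 CPM in each library.

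**Figure D1:**
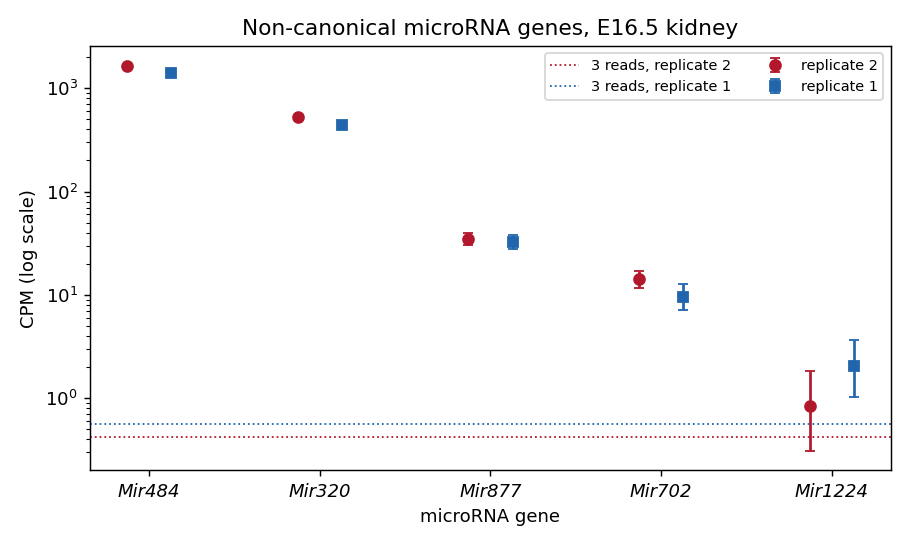
Levels of the 5 genes in each library, in CPM on a log axis. Circles are replicate 2, squares are replicate 1, bars are exact 95% intervals for counting error and dotted lines mark 3 reads. Mir484 and Mir320 lie at 438 CPM or more in both libraries, and Mir1224 lies near the dotted lines.

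Each step in this order was larger than the replicate spread. That spread compares each gene with itself between libraries. How evenly the libraries capture different microRNAs was not measured, so the steps are those of read counts. The pooled SD of log2(CPM + 1) over genes of at least 100 CPM was 0.22, and its 95% normal range puts the limit for a difference of means at 1.34-fold. Mir484 stood 3.18-fold above Mir320, and the ratio of their CPM was 3.12 in replicate 2 and 3.24 in replicate 1. Mir320 stood 13.9-fold above Mir877, with ratios of 15.1 and 13.5 in replicates 2 and 1. Mir877 exceeded Mir702 2.73-fold, with ratios of 2.46 and 3.39, and Mir702 exceeded Mir1224 5.33-fold, with ratios of 16.8 and 4.64 in replicates 2 and 1. The ratio of the lowest pair thus depended most on the library. Its fold also depends on the 1 CPM added before taking logs, since its log2 difference of 2.41 became 3.04 with 0.1 CPM added. Low genes spread more, so the limit was also taken from genes within 4-fold of the lower gene of each pair, which gave 1.41, 1.43, 1.62 and 1.79-fold. All 4 steps exceeded those limits too. The smallest p that an exact sign-flip test allows with this number of libraries is 0.5, so no test is given for the order.

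**Figure D2:**
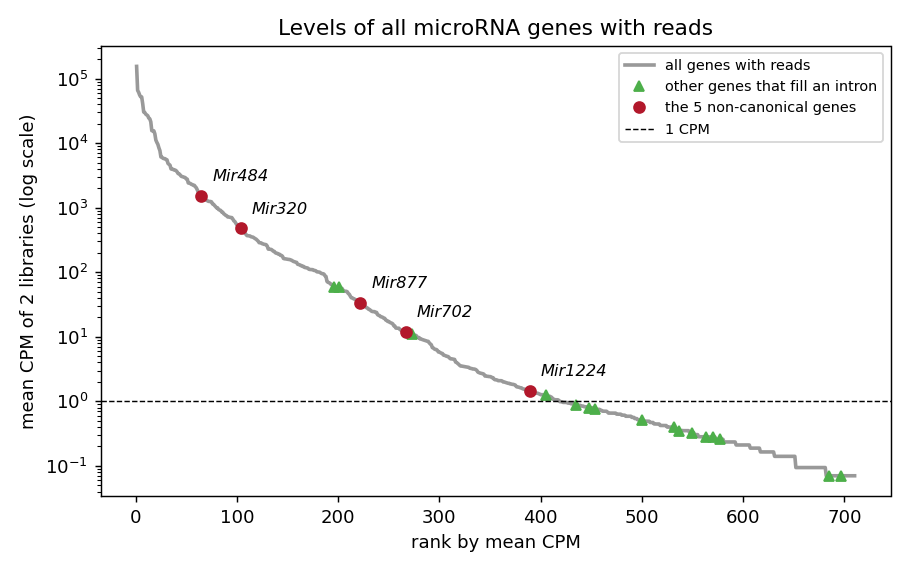
Mean CPM of both libraries against rank for all microRNA genes with reads, on a log axis. Red circles are the 5 genes, green triangles are other genes whose precursor fills an intron and the dashed line is 1 CPM. Mir484 and Mir320 lie at ranks 65 and 104, and the triangles lie at or below 60.0 CPM.

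Few genes followed the mirtron layout, and few of those had more than traces of reads, as was true of microRNA genes in general. A precursor was said to fill an intron when both of its ends lay within 5 nt of the ends of 1 intron on its own strand in GENCODE M21. This held for 23 of 1894 matched genes (1.21%), while 841 (44.4%) lay in an intron of their own strand. Mir877 and Mir1224 match the ends of 85-nt introns of Abcf1 and Vwa5b2 with an offset of 0 nt at either side. Mir702 does not meet this rule. Its annotated precursor begins 9 nt before the 102-nt Plod3 intron, inside the exon, and ends 2 nt before the intron does. Its mature miR-702-5p nevertheless begins at the first base of the intron, as do miR-877-5p and miR-1224-5p. On the other side, miR-1224-3p ends with the last base of its intron, miR-877-3p ends 1 nt short of it and miR-702-3p 2 nt short.

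**Figure D3:**
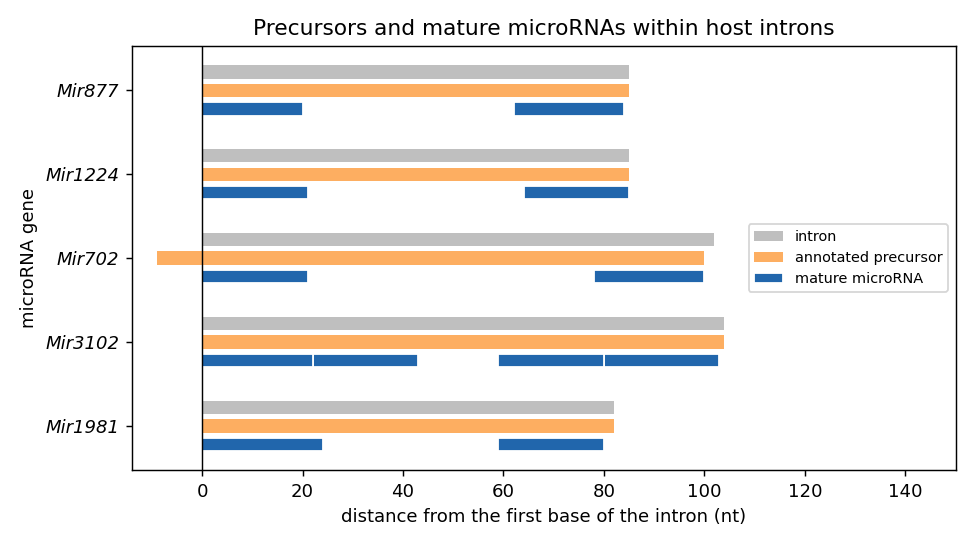
Introns (grey), annotated precursors (orange) and mature microRNAs (blue) of 5 mirtron genes, by distance in nt from the first base of the intron. The first mature microRNA of each of these genes begins at 0, and of the 5 precursors drawn that of Mir702 begins 9 nt before the intron.

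Levels of the 23 genes summed to 0.0188% of reads in microRNA genes in replicate 2 and 0.0153% in replicate 1, from 1337 and 815 reads. Of the 23 genes, 4 reached 1 CPM in both libraries, against 387 of all 1973 genes and 200 of the 818 intronic genes of another layout. The rate among the 23 was thus near that of all genes. The 4 genes were Mir3102, Mir1981, Mir877 and Mir6944. The first 3 supplied 89.0% ± 1.56 of the reads of the 23 genes. Mir3102, in an intron of Arhgef17, had 529 reads in replicate 2 and 243 in replicate 1, or 74.2 and 45.7 CPM. Mir1981, in Marc2 of the mitochondrial amidoxime-reducing system, stood at 59.9 and 56.4 CPM in replicates 2 and 1. Both were therefore above Mir877 in each library. Mir6944, in the drebrin gene Dbn1, stood at 12.5 and 9.40 CPM in replicates 2 and 1. Mir1224 was the fifth of the 23 by mean level, and 5 genes of the 23 had no read in either library.

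A wider list of mirtron candidates, Mir1981, Mir3102 and the genes numbered Mir6896 to Mir7094, had 176 rows. Reads fell on 122 of them, 10 reached 1 CPM in both libraries and 17 filled an intron by the rule above. Their summed share was 0.0194% ± 0.00212, so 176 genes together held fewer reads than Mir320 alone.

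Hairpins of the 4 genes with a RefSeq entry were rich in G and C, at 58.2% for Mir484, 60.0% for Mir1224, 61.2% for Mir877 and 65.1% for Mir702. The 869 hairpins with a row had a median of 52.3%, with the middle 80% of them between 40.0 and 64.2%. Folding with RNAfold gave a predicted free energy per nt of -0.37 kcal/mol for Mir484, -0.43 for Mir877, -0.43 for Mir702 and -0.50 for Mir1224, against a median of -0.41 for the 869. Mir484 had the lowest share of paired bases of the 4, 53.7%, against a median of 69.4%. A hairpin that begins with GU and ends with AG, read on the RNA strand only, was found in 30 of the 869 (3.45%), Mir877 and Mir1224 among them. It was found in 15 of the 17 hairpins whose precursor fills an intron, where the layout itself calls for it, and in 15 of the other 852. Of those 15, 13 lie in an intron of their own strand without meeting the 5-nt rule at both ends, and 2 reached 1 CPM in both libraries. These 2 were Mir20a of the Mir17 cluster, at 10265 ± 289 CPM, and Mir194-2, at 95.2 ± 11.4 CPM, and neither lies in an intron of its own strand in this annotation. No 18-nt stretch was shared with another hairpin in any of the 4 genes, while 75 of 335 genes at 1 CPM or more in both libraries with an entry shared one.

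The libraries were compared to see how far these levels held between the pools. A conditional binomial test, exact and two-sided, was run on TMM-scaled reads with Benjamini-Hochberg adjustment. Of the 5 genes, 2 passed an adjusted p of 0.05, against 33.6% of the 455 genes tested. Mir484 had a log2 ratio of replicate 2 over replicate 1 of 0.07 with a counting SE of 0.02 (adjusted p = 0.00842), a 1.05-fold difference. Mir320 had a log2 ratio of 0.12 ± 0.04 (counting SE, adjusted p = 0.00509), a 1.09-fold difference. With library totals in place of TMM the log2 ratios were 0.21 for Mir484 and 0.27 for Mir320. Both TMM-scaled differences were below 1.34-fold, but that limit was set for means of 2 genes on CPM without TMM, not for a ratio between libraries. The binomial test counts reads only and compares 2 libraries, not conditions. The edgeR exact test was run with a coefficient of variation of 0.2 between libraries, which was assumed and not estimated from these data. Neither gene passed it, where 0.659% of all tested genes did. Differences this small could not pass at that value with 1 library a side, so that outcome says nothing on them. Shares of cell type markers in these libraries follow as a description. The summed share of the 3 measured blood markers was 0.0820% in replicate 2 and 0.0640% in replicate 1. Liver Mir122 held 0.0171% and 0.0210% in replicates 2 and 1. The 6 kidney epithelial genes held 18.8% in replicate 2 and 20.4% in replicate 1. Whether these shares reflect a difference in cell types, and their part in the ratios of Mir484 and Mir320, was not tested.

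None of the 3 mirtron genes passed this test between the libraries. The log2 ratio of replicate 2 over replicate 1 was -0.05 for Mir877, with a counting interval of the fold from 0.794 to 1.18, and turned to 0.10 when library totals were used without TMM. Mir702 had a ratio of 0.42, with the fold between 0.946 and 1.91. Mir1224 had a ratio of -1.44, with the fold between 0.112 and 1.09, which leaves room for a large difference. Adjusted p-values in the exact binomial test were 0.868, 0.209 and 0.121. Among the 28 tested genes of the wider list, Mir3102 was higher in replicate 2 (log2 ratio 0.56, adjusted p = 2.6e-06, exact binomial test), while Mir7083, Mir7026 and Mir6928 were lower. None of these 4 passed the edgeR exact test (adjusted p of 0.597 or more). Those last 3 were named after their values were seen. Relative to plain library totals, TMM moved every log2 ratio by 0.14.

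**Figure D4:**
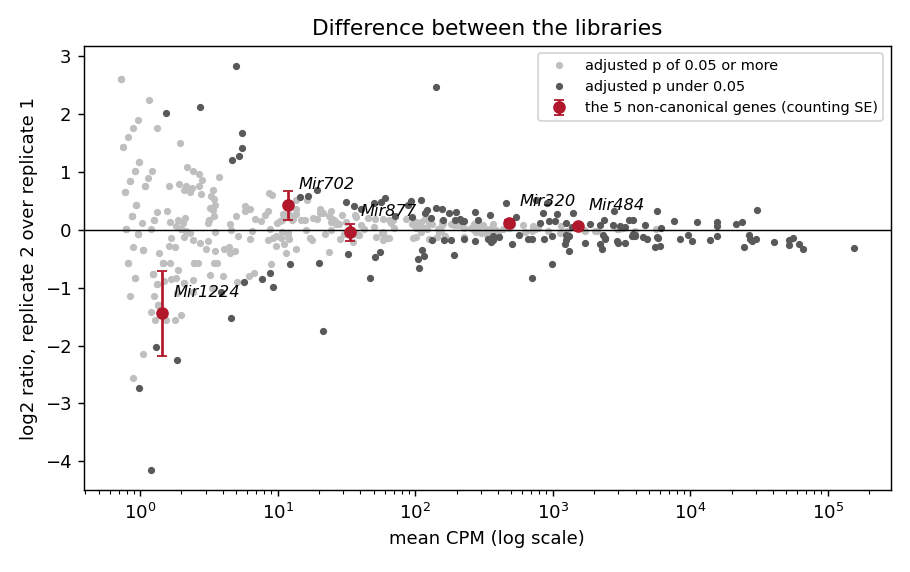
Log2 ratio of replicate 2 over replicate 1 with TMM scaling against mean CPM on a log axis, for the genes tested. Grey dots are other genes, dark where the adjusted p is under 0.05, red circles are the 5 genes and bars are counting SEs. Mir484 and Mir320 lie close to 0, Mir1224 lies at -1.44, and Mir877 at -0.05, which turns positive without TMM. A gene with no read in 1 library is not drawn.

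Genes whose levels were most like those of the 5 genes were sought among 740 genes that share no 18-nt stretch, by the distance of log2(CPM + 1) over both libraries. Mir379, of the imprinted Dlk1-Dio3 locus, was nearest to Mir484 (distance 0.03), with 1613 and 1397 CPM in replicates 2 and 1. Mir34c was nearest to Mir320 (0.06), Mir3105 to Mir877 (0.14), Mir7688 to Mir702 (0.13) and, at the same distance and with the same counts, Gm23363 and the mirtron candidate Mir7075 to Mir1224 (0.09). With 2 libraries of 1 group, this likeness is one of level.

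Mir451a, which Drosha cuts but Dicer does not, uses the opposite shortcut. Its 316 and 232 CPM in replicates 2 and 1 lay below Mir320 and above Mir877 in both. Mir451a is made in erythroid cells, and other markers of cells from outside the kidney were present too, Mir223 of myeloid cells at 367 ± 43.1 CPM and liver Mir122 at 191 ± 27.6 CPM. Of the kidney epithelial list, all 6 genes reached 1 CPM in both libraries and held 19.6% ± 1.12 of the reads. Most of it was Mir10a, of a Hox locus, at 154681 ± 13615 CPM, so the share cannot be read as that of epithelium. Mir429 of the epithelial miR-200 family stood at 15538 ± 298 CPM. How the reads of the 5 genes divide between the cell types of the kidney was not tested, and in whole tissue fewer cells of a type and less RNA per cell cannot be told apart.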

How the data were processed

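The deposited values are raw counts of reads per microRNA gene on mm10, and the text files deposited beside the tables name annotation M4. The aligner, the counter and the trimming are not stated there. Each table has 3 columns of counts and 4 rows that name no gene, which held 51.5% of 14706415 reads in replicate 2 and 55.2% of 11877442 reads in replicate 1 and were left out. Multimapping reads have a row of their own, so a gene with an identical copy would be undercounted. The column on the strand of the gene was used. Symbols were matched by Ensembl identifier to GENCODE M21 for 1894 of 1973 rows, on GRCm38, which is mm10. Sequences are from RefSeq on GRCm38.p6.

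The denominator of CPM was the sum of gene-row reads on the strand of the gene. Libraries were compared with an exact conditional binomial test (scipy 1.17.1) over 455 genes of at least 10 reads, with TMM factors from edgeR 4.0.16. The quasi-likelihood test of edgeR needs residual degrees of freedom, which 1 library a side does not give. The binomial test was tested on simulated data. Alternatives were library totals, DESeq2 1.42.0 size factors, all genes with a read, either-strand reads, the edgeR exact test, another pseudocount, other intron limits and leaving out each library. Hairpins were folded with RNAfold 2.7.2. Intervals are exact (Clopper-Pearson, 95%) and cover counting error only. The genes named are the 5 members, their nearest genes by level, the highest of each list, the 5 highest that fill an intron and those that share a seed. Mir760, Mir20a, Mir194-2, Mir7083, Mir7026 and Mir6928 fall outside this rule and were named after their values were seen. So were the genes of the kidney epithelial list other than Mir10a. Members and lists were chosen with earlier results of these data known.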

Additional observations from a re-analysis of the deposited data

How the results depend on the processing

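Alternative values, 71 in all, were computed for the levels, shares, steps and library ratios of the 5 genes. They also cover the counts of genes called and of genes that fill an intron. Of the 71, 61 stayed alike: levels and shares moved by less than the replicate SD, and counts stayed within 1.5 times. Steps and ratios kept their direction and their side of the threshold. With 2 libraries, leaving 1 out always moves a level or share by less than the replicate SD. Those alternatives were thus bound to stay alike and say nothing on how firm the levels are. The 5 genes had 0 opposite-strand reads, so counting either strand could change their levels and shares through the denominator only. Taking the limit from genes within 4-fold changed the limit of a step, not its fold. Leaving the 10 most abundant genes out of the library total, which shrinks the denominator, put Mir484 at 3566 CPM, Mir320 at 1122 CPM, Mir877 at 78.6 CPM, Mir702 at 27.6 CPM, Mir1224 at 3.45 CPM and the summed share at 0.480%. All 5 genes of a library are divided by the same number there, so their order could not change. Without replicate 1 or without replicate 2, Mir484 ranged from 1420.0 to 1641 CPM, Mir320 from 438 to 526, Mir877 from 32.5 to 34.8, Mir702 from 9.59 to 14.2 and Mir1224 from 0.842 to 2.07. Without replicate 1, Mir1224 fell below 1 CPM, a change of over 1.5 times from its mean of 1.46 CPM. Its step below Mir702 ranged from 1.79 to 3.04 log2 when a library was left out, and was 3.04 log2 with a pseudocount of 0.1 CPM, against 2.41 with 1 CPM. With the edgeR exact test at an assumed coefficient of variation of 0.2 between libraries, Mir484 (log2 ratio 0.0652) and Mir320 (0.12) no longer passed. In all, 3 genes passed in place of 153. With library totals the ratio of Mir877 turned to 0.10, the effect of a scaling shift of 0.14, and it passed under neither. Adjusted p over the other alternatives in the binomial test ranged from 8.7e-22 to 0.0415 for Mir484 and from 1.7e-11 to 0.0145 for Mir320. Within 2 nt 22 genes, and within 10 nt 29 genes, filled an intron, Mir702 among the 29. No paired analysis was possible because the series holds 1 group. Depth limits Mir1224 most, at 6 and 11 reads in replicates 2 and 1.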
